A study of Homo sapiens with 15 samples.

Results

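The 10 genes described here encode ANGPTL4, a secreted inhibitor of lipoprotein lipase, and proteins that store, release and burn fatty acids: PLIN2, HILPDA, PDK4, CPT1A, ACADVL, HADHA, PNPLA2, CD36 and LPIN1. They were taken by symbol from the human rows of the deposited count table, which holds 60649 human genes, and each symbol matched 1 row. All 10 passed the filter on low counts that 15435 human genes passed. The genes were picked by name with results of these tumours already known, among them the change of ANGPTL4 in stress against no stress. Their values in that comparison are therefore a description. Folds there carry 95% intervals, which give the uncertainty of a fold from the spread between tumours of all groups, post-stress included. No p is printed for members there, and nothing is read from which members pass the test.

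The tumours were xenografts of A549, an established human lung adenocarcinoma line, grown under the skin of BALB/c nude mice, a strain without a thymus that lacks mature T cells. All 15 mice received the same number of A549 cells and were otherwise alike in the labels. Of these, 5 had no restraint (no stress). A further 5, called stress, were restrained ahead of the transplant (the label gives 7 days), and the remaining 5, called post-stress, after it (12 days). The labels do not say whether these days are a length or a start of restraint, nor do they give age or sex of the mice or other agents. RNA came from whole tumours, so that each library mixes human tumour RNA with mouse host RNA, and fewer cells of a type cannot be told apart from less RNA per cell. The labels name 15 separate tumours without saying whether mice shared a cage or day. The p-values rest on the spread between these tumours, with a single cell line behind all of them.

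Fatty acids reach cells from the blood after lipoprotein lipase frees them from lipoproteins, and ANGPTL4 blocks that enzyme. Inside a cell, surplus fatty acids are stored as triglyceride in lipid droplets, which PLIN2 coats. HILPDA, a small droplet protein, inhibits PNPLA2 (ATGL), the lipase that starts triglyceride breakdown. For burning, CPT1A passes long-chain fatty acids towards the mitochondrial matrix, where ACADVL and HADHA carry out steps of beta-oxidation. PDK4 switches off pyruvate dehydrogenase and so spares glucose carbon. From earlier work on other cells, PPAR transcription factors are known to act on many of these genes, and the hypoxia-inducible factors on ANGPTL4, PLIN2 and HILPDA.

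Libraries held 16729091 to 19680449 counts, of which 12877165 to 15892705 fell on human genes. Mouse genes took 15.6% to 30.2% of counts in no-stress tumours, 18.6% to 24.6% in stress tumours and 12.4% to 23.0% in post-stress tumours. Levels are given below as counts per 1000000 human counts (CPM). The tissue label was checked against 10 epithelial and A549 genes. Of these 9 passed the filter, and their summed level was 15100 to 20100 CPM without stress, 14500 to 16900 CPM with stress and 15800 to 18200 CPM after post-stress. KRT19 did not pass and was under 1 CPM in all libraries. EPCAM (6.29 to 21.3 CPM) and CDH1 (15.6 to 28.7 CPM) passed but added little to the sum. One of the 9, ALDH3A1, fell with stress (log2 fold change -0.53 ± 0.16 SE, adjusted p = 0.044).

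ANGPTL4 and PLIN2 stood apart between stress and no-stress tumours, and PDK4 did not. Stretches upstream of their RefSeq start sites (build GRCh38.p14) are printed 5′ to 3′ on the strand of the gene. These genes were chosen for printing with their levels known, and no contrast between them is read from the matches. Capitals mark each match to the hypoxia core, ACGTG or GCGTG, searched on both strands. The ANGPTL4 stretch is chr19:8363905-8364150 (plus strand, bases -250 to -5 from the start). The PLIN2 stretch is chr9:19127578-19127742 (minus strand, bases -250 to -86), and the shorter PLIN2 site is chr9:19127552-19127581 (bases -89 to -60). The PDK4 stretch is chr7:95596517-95596766 (minus strand, bases -250 to -1).
ANGPTL4: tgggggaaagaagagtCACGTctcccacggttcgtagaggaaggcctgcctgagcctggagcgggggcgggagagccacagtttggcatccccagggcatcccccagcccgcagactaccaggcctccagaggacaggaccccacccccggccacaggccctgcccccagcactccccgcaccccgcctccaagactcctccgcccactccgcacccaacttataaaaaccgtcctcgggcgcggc
PLIN2: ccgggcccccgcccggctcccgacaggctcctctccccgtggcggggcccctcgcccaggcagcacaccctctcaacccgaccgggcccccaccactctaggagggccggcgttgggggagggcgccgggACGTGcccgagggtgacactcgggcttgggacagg
PLIN2 site: caggGCGTGctgccgcgggtCACGTGctgc
PDK4: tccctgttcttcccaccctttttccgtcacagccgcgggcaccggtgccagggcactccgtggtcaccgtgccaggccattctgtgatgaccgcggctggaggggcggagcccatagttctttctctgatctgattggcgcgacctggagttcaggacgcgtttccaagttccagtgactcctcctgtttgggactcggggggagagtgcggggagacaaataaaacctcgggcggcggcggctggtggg
Among the 250 bases upstream of the start, ANGPTL4 held 1 match, at bases -234 to -230, and PLIN2 held 4. The first 2 PLIN2 matches began at -120 and -85. An annotated exon of PLIN2, an alternative first exon in GENCODE 29, takes up the last 84 bases of that window. Of the 4 PLIN2 matches 2 lay wholly inside it and the one at -85 lay across its edge. The other 2 overlapped in the palindrome CACGTG, which reads the same on both strands and spans -69 to -64. No match lay in the same window of PDK4, CPT1A, ACADVL, HADHA, PNPLA2, CD36 or LPIN1. Only 1 start site per gene was searched. The windows of ANGPTL4, PLIN2, CD36 and LPIN1 lay wholly inside the annotated gene, past its outermost 5′ end. Sequence before other starts of these genes was not searched. Of the 10 members 9 matched the promoter table, all but HILPDA. This core is common: 43.2% of 35116 promoters of that length held at least 1 match, and the PLIN2 window has a GC content of 78.0%, against a median of 58.0% over all promoters. The PPAR direct repeat, 2 copies of AGGTCA with 1 base between them, present in 0.0171% of promoters, was found in none of the 9. The glucocorticoid half-site AGAACA (12.4% of promoters) matched PDK4 once, the half-site AGGTCA (12.1%) matched PNPLA2 once, and the FOXO sequence GTAAACA (2.98%) matched none. These matches describe letters, not binding.

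ANGPTL4 (chromosome 19, 8363289 to 8374373, plus strand) was the member with the largest difference between groups. In no-stress tumours 1 to 5 its level was 22.8, 41.0, 28.2, 45.6 and 44.5 CPM. In stress tumours it was 166, 165, 181, 202 and 280.1 CPM, all above every no-stress tumour. In post-stress tumours it was 400.3, 306, 147, 88.6 and 79.8 CPM. All post-stress tumours also lay above the no-stress group, but they ran from below the lowest to above the highest stress tumour. Group means were 36.4 ± 10.3, 199 ± 47.7 and 204 ± 142 CPM (SD, n = 5 each). The fitted level with stress was 5.46-fold that without (95% confidence interval 2.85 to 10.5), and after post-stress 5.61-fold (2.92 to 10.8). The widely spread post-stress tumours also enter the stress interval. The SE of the stress log2 fold change was 0.435 in this fit and 0.228 with only the stress and no-stress tumours fitted.

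PLIN2 (chromosome 9, 19108375 to 19149290, minus strand), the droplet coat protein, stood at 107, 115, 106, 166 and 128 CPM in no-stress tumours. Stress tumours held 357, 209, 363, 332 and 286 CPM, again with no overlap. Post-stress tumours held 439.9, 343, 329, 189.7 and 148 CPM, and 1 of them, tumour 5, fell inside the no-stress range. The PLIN2 level was 2.49-fold that of no stress with stress (95% interval 1.68 to 3.69) and 2.33-fold after post-stress (1.57 to 3.45).

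HILPDA (chromosome 7, 128455849 to 128458418, plus strand), the inhibitor of droplet lipolysis, was scarcer, at 13.1, 16.8, 11.2, 26.4 and 20.0 CPM in no-stress tumours. It reached 56.5, 42.9, 69.3, 63.1 and 67.1 CPM in stress tumours, above all no-stress values. Post-stress tumours gave 64.6, 42.2, 40.9, 30.2 and 25.7 CPM, with only tumour 5 inside the no-stress range. HILPDA was 3.42-fold the no-stress level with stress (95% interval 2.3 to 5.09) and 2.33-fold after post-stress (1.57 to 3.46).

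PNPLA2, the lipase that HILPDA inhibits, moved far less. Its level was 43.9, 57.9, 49.8, 38.8 and 57.3 CPM without stress. It was 71.1, 60.6, 58.9, 51.2 and 63.9 CPM with stress, where 4 of 5 tumours stood above the whole no-stress group, and 60.7, 53.3, 61.2, 51.9 and 58.5 CPM after post-stress. The fold was 1.23 with stress (1.05 to 1.45) and 1.15 after post-stress (0.984 to 1.35).

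**Figure D1:**
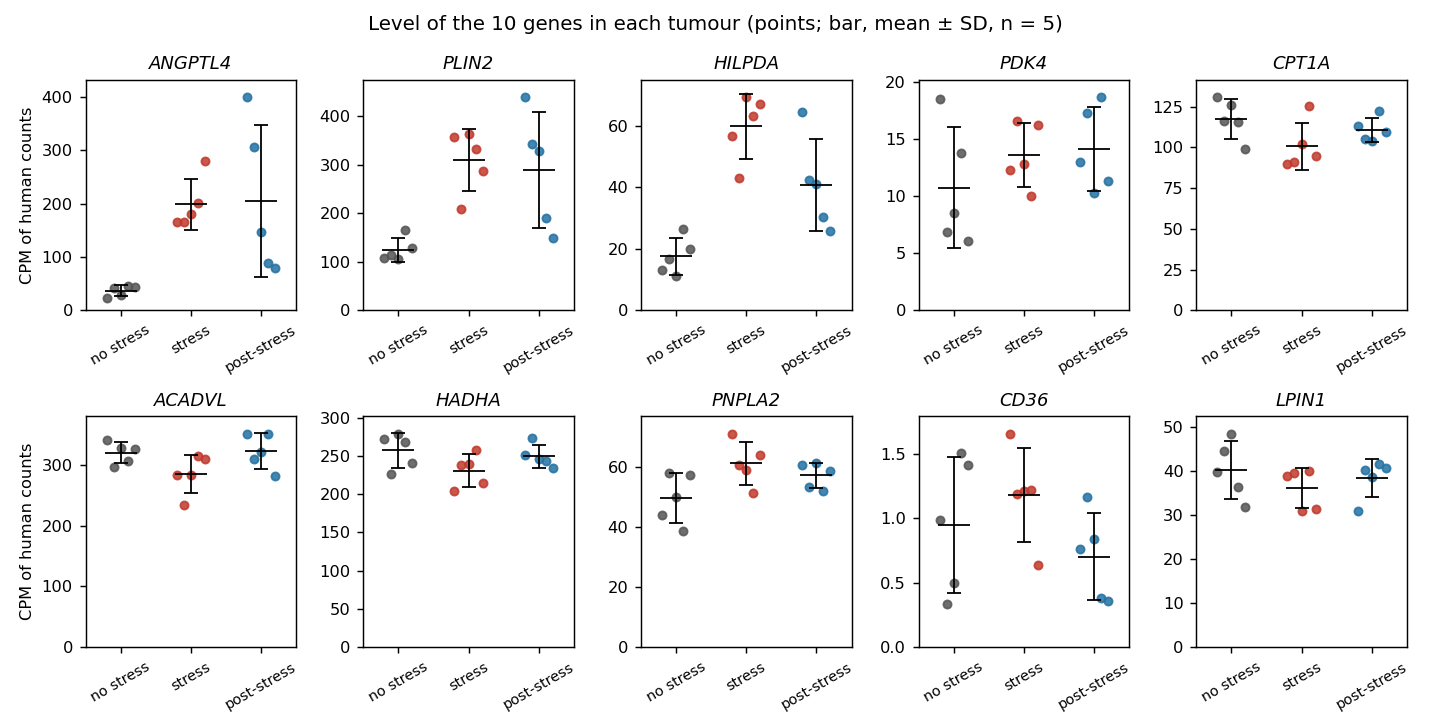
Level of each of the 10 genes in each tumour, in CPM of human counts on axes that start at 0, with points for tumours 1 to 5 from left to right in each group and bars for mean ± SD (n = 5). ANGPTL4, PLIN2 and HILPDA do not overlap between stress and no-stress tumours, their post-stress values are spread widely (79.8 to 400.3 CPM for ANGPTL4), and the groups of the other 7 genes overlap, beside 8.79% of all genes without overlap.

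PDK4, the kinase that turns off pyruvate dehydrogenase, showed no separation of groups. Its no-stress tumours held 18.5, 6.85, 8.54, 13.8 and 6.10 CPM, its stress tumours 12.3, 16.6, 12.8, 10.0 and 16.2 CPM, and its post-stress tumours 13.0, 17.2, 10.3, 18.7 and 11.3 CPM. No-stress tumour 1 and post-stress tumour 4 were the highest, at nearly the same level. The fold with stress was 1.26, with a 95% interval of 0.838 to 1.90.

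The 3 members of mitochondrial oxidation lay slightly lower with stress, with overlapping groups. CPT1A, the gate of the carnitine shuttle, was at 131, 116, 126, 115 and 99.1 CPM without stress and at 89.9, 91.1, 102, 125 and 94.97 CPM with stress. Stress tumour 4 lay among the higher no-stress values. The CPT1A fold was 0.857 (0.746 to 0.985). ACADVL, which starts beta-oxidation of very long chains, ranged from 298 to 341 CPM without stress and from 235 to 315 CPM with it (0.891-fold, 0.784 to 1.01). HADHA, the alpha subunit of the trifunctional protein, ranged from 226 to 279 CPM and from 205 to 257 CPM (0.897-fold, 0.796 to 1.01). After post-stress the folds were 0.943 for CPT1A, 1.01 for ACADVL and 0.971 for HADHA, with intervals that include 1.

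CD36, a fatty acid receptor at the cell surface, was close to the detection limit, with 5 to 22 raw counts per library. Its level was 0.333 to 1.504 CPM without stress, 0.635 to 1.66 CPM with stress and 0.356 to 1.16 CPM after post-stress. The 95% interval of its stress fold, 0.691 to 2.29, holds both a fall and a rise. LPIN1, a phosphatidate phosphatase on the route to triglyceride, was at 31.8 to 48.4, 30.8 to 39.9 and 30.8 to 41.5 CPM in the 3 groups (0.898-fold with stress, 0.757 to 1.07).

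Changes were called with the edgeR quasi-likelihood test at a Benjamini-Hochberg adjusted p under 0.05 over all 15435 human genes. In stress against no stress 10.5% of all genes were called and 5.23% were called higher. Of the 10 members ANGPTL4, PLIN2 and HILPDA stand among the higher ones. The same 3 are those whose groups did not overlap, where 8.79% of all genes had groups that did not overlap and 4.09% lay higher without overlap. Because the genes were picked with this comparison known, nothing is read from these counts. The median log2 fold change, from which nothing is read either, was 0.32 over the 10 members and -0.00719 over all genes. The median of the members lies between PNPLA2 (0.30) and CD36 (0.33), a gene close to the detection limit.

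Post-stress against no stress shares the 5 no-stress tumours with the first comparison, so that its result is no independent evidence. The members were also picked with earlier results of these data known. The adjusted p-values of edgeR below do not allow for that choice, and the calls of members are a description. The same 3 members were called higher and none lower, where 0.842% of all genes were called and 0.596% were called higher. ANGPTL4 rose by 2.49 ± 0.44 on the log2 scale (SE, adjusted p = 0.0223), and its groups did not overlap, as for 3.47% of all genes. PLIN2 rose by 1.22 ± 0.26 (adjusted p = 0.0493) and HILPDA by 1.22 ± 0.27 (adjusted p = 0.0491), each in 4 of 5 post-stress tumours above the whole no-stress group. Among the other 7 members the adjusted p ran upwards from 0.388 for PNPLA2. The median log2 fold change of the 10, likewise a description, was 0.11, and of all genes -0.00585.

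These post-stress calls depended on single tumours. The ANGPTL4 call was lost without no-stress tumour 1 (adjusted p = 0.0845), no-stress tumour 3 (0.0732) or post-stress tumour 2 (0.0545), while its log2 fold change stayed between 2.10 and 2.70. PLIN2 and HILPDA were each called in 4 of 15 fits that left out 1 tumour, those without no-stress tumour 4, stress tumour 2, post-stress tumour 4 or post-stress tumour 5. Over the 15 fits the adjusted p ran from 0.0142 to 0.147 for PLIN2, with a log2 fold change of 1.03 to 1.39. For HILPDA it ran from 0.027 to 0.146, with a log2 fold change of 1.00 to 1.43.

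**Figure D2:**
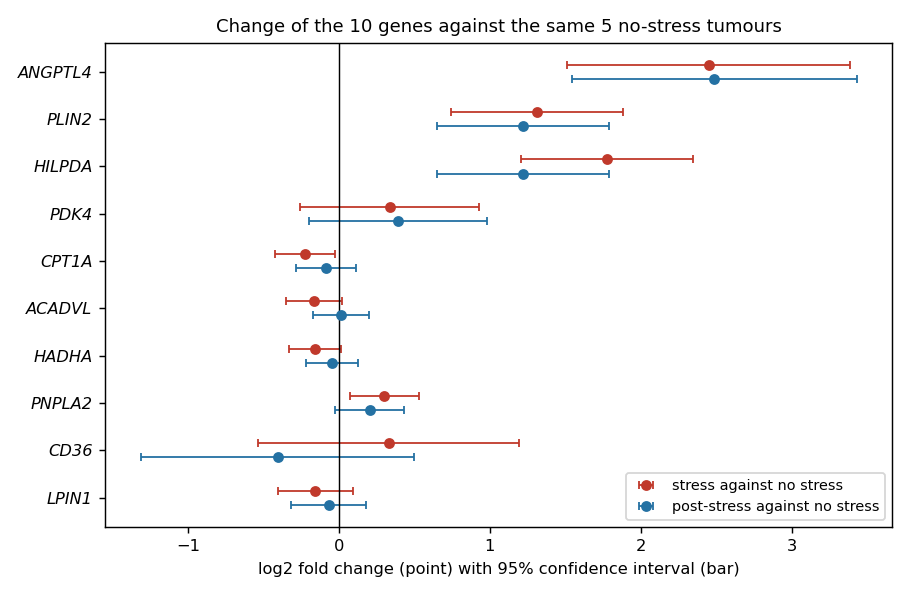
Log2 fold change of each of the 10 genes (points) with its 95% confidence interval (bars) in stress and in post-stress tumours, both against the same 5 no-stress tumours. ANGPTL4, PLIN2 and HILPDA lie to the right of 0 in both, at 2.45, 1.31 and 1.78 with stress and 2.49, 1.22 and 1.22 after post-stress. Points of the other 7 genes run from -0.41 (CD36 after post-stress) to 0.39 (PDK4 after post-stress). The CD36 intervals are wide, and the stress intervals of CPT1A and PNPLA2 leave out 0.

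Compared directly, stress and post-stress tumours gave no member that passed the test, and 0.0389% of all genes were called (6 of 15435 by edgeR, 1716 at an unadjusted p under 0.05). By edgeR 1 member, HILPDA, had an unadjusted p under 0.05, and DESeq2 and limma-voom called none. HILPDA was 1.47-fold higher in stress tumours (interval 1.00 to 2.15, adjusted p = 0.444). ANGPTL4 was 0.973-fold (0.529 to 1.79, adjusted p = 0.983) and PLIN2 1.07-fold (0.725 to 1.57, adjusted p = 0.925). These intervals are wide, and they do not show that the 2 timings of restraint gave the same levels.

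Within the post-stress group the 3 genes ranked tumour 1 highest and tumours 4 and 5 lowest. Tumours 4 and 5 also had the highest mouse share of that group, 23.0% and 22.7%, against 12.4% in tumour 1, 15.4% in tumour 2 and 14.6% in tumour 3. In the stress group the order differed: tumour 5, with the highest mouse share (24.6%), had the most ANGPTL4 (280.1 CPM), the second-highest HILPDA level (67.1 CPM) and the second-lowest PLIN2 level (286 CPM). No-stress tumours 1 and 5, with mouse shares of 30.2% and 29%, held 22.8 and 44.5 CPM, the lowest and the second-highest ANGPTL4 level of their group. With the mouse share as a covariate the ANGPTL4 log2 fold change was 2.37 with stress (2.45 without the covariate) and 2.04 after post-stress (2.49 without it). After post-stress the covariate changed the log2 fold change of PLIN2 from 1.22 to 0.91 and that of HILPDA from 1.22 to 1.02. With it none of the 3 was called in post-stress tumours by edgeR, and the adjusted p was 0.138 for ANGPTL4, 0.212 for PLIN2 and 0.201 for HILPDA.

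**Figure D3:**
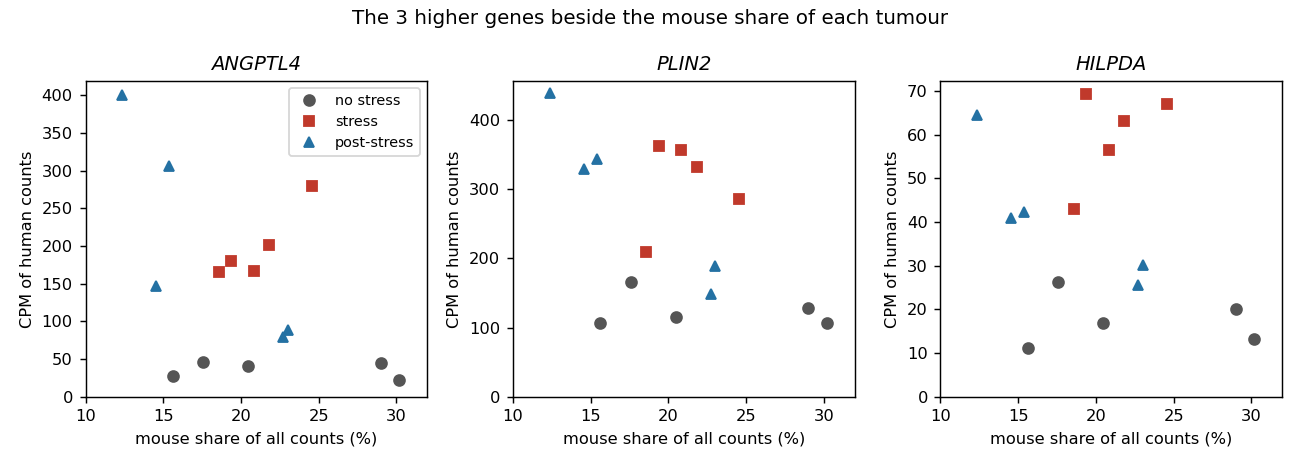
Level of ANGPTL4, PLIN2 and HILPDA (CPM of human counts) against the share of each library's counts that fell on mouse genes (percent), with 1 symbol per tumour. Post-stress tumours 4 and 5, at mouse shares of 23.0% and 22.7%, have the lowest levels of their group, while stress tumours stay high between 18.6% and 24.6%.

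The transplanted human cells were all A549, so that host cells of other types count on mouse genes, which were not examined for them. The design made low human-gene counts of other cell types likely in advance, and these counts do not measure host cells. Most adipocyte, macrophage, endothelial and skeletal muscle genes listed were low, whereas the fibroblast genes summed to as much as 217 CPM. Of 8 adipocyte genes ADIPOQ, LEP and LPL had no count in any library, and FABP4 and PLIN4 stayed under 1 CPM. The adipocyte list summed to 13.3 to 15.2 CPM without stress, 10.8 to 21.8 CPM with stress and 4.70 to 25.5 CPM after post-stress. CIDEC made up 37.9% to 85.8% of that sum, the least in post-stress tumour 5. Of 10 macrophage genes 8 were under 1 CPM everywhere, with C1QA and C1QB at 0. The whole list summed to 3.72 to 8.36, 2.79 to 4.24 and 2.94 to 8.40 CPM in the 3 groups. Of 8 endothelial genes 7 stayed under 1 CPM everywhere, and the list summed to 12.7 to 21.0, 10.2 to 16.5 and 8.27 to 25.4 CPM. The remaining one, PECAM1, was at 24.5, 18.1, 13.6, 10.2 and 7.27 CPM in post-stress tumours 1 to 5, the same order of tumours as ANGPTL4. In stress tumours PECAM1 was lowest (8.89 CPM) in tumour 5, which had the most ANGPTL4. Of 6 skeletal muscle genes 5 matched a row and none passed the filter. Their sum was 0.20 to 2.88, 0 to 0.847 and 0.137 to 4.99 CPM, and within the post-stress group MYH4 was highest in tumours 4 and 5 (2.14 and 4.13 CPM).

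The 7 fibroblast genes summed to 98.2 to 193 CPM, 105 to 168 CPM and 62.4 to 217 CPM in the 3 groups, of which COL1A1 made up 60.6% to 98.7%. None of the 4 tested passed the edgeR test in any comparison (DCN with stress and PDGFRB after post-stress had an unadjusted p under 0.05). Within the post-stress group COL1A1 was highest in tumours 5 (197 CPM) and 4 (116 CPM), the tumours with the least ANGPTL4. Other fibroblast genes had another order there. DCN was lowest in those tumours (5.72 CPM in tumour 4 and 14.8 CPM in tumour 5, against 15.1 to 20.2 CPM), as was LUM (2.44 and 3.21 CPM, against 4.08 to 6.80 CPM). PDGFRB was highest in tumour 2 (16.4 CPM). Whether these human-gene counts came from A549 cells or from mouse reads counted on human genes was not tested. Host cell types were not examined on mouse genes, and their part in the results was not tested.

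Around the 10 members stand 136 other genes in 10 lists of fatty acid pathways, 106 of which passed the filter. These lists too were chosen with earlier results of these data known, and the adjusted p-values below do not allow for that choice. In stress against no stress 5 of the 106 rose and 8 fell (12.3%, beside 10.5% of all genes), a share near the background. The calls per list given below stand beside that same 10.5%. Post-stress against no stress called none of them by edgeR or limma-voom (22 at an unadjusted p under 0.05 by edgeR), and DESeq2 called 3 higher and 3 lower. Stress against post-stress called none by any of the 3 tools (14 at an unadjusted p under 0.05 by edgeR).

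Among 9 tested genes of droplet coat and assembly, 2 rose with stress and none fell, with a list median of -0.02 on the log2 scale. HSD17B11, a dehydrogenase found on droplets, went from 58.6 to 88.7 CPM across no-stress tumours to 90.0 to 148 CPM across stress tumours (1.53-fold, adjusted p = 0.00864). PLIN1, a droplet coat protein typical of fat cells, was 2.03-fold higher (adjusted p = 0.0216) at very low levels of 1.30 to 3.01 and 2.16 to 4.46 CPM. The PLIN1 call was lost without no-stress tumour 1, no-stress tumour 3 or stress tumour 1 (adjusted p up to 0.0618).

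Among 6 lipolysis genes 1 fell and none rose. PNPLA3, a droplet protein related to PNPLA2, fell to 0.538-fold (adjusted p = 0.0373), from 4.37 to 8.08 CPM down to 1.98 to 4.53 CPM. That call held in 8 of 15 fits that left out 1 tumour, and was lost without no-stress tumour 1, 3 or 5 or stress tumour 1, 2, 3 or 5 (adjusted p up to 0.118). ABHD5, the activator of PNPLA2, was 0.915-fold (adjusted p = 0.456). G0S2, another inhibitor of PNPLA2, was 1.58-fold with stress (adjusted p = 0.123) and 1.86-fold after post-stress (adjusted p = 0.12). It was called with stress when the mouse share was a covariate, and in both comparisons without no-stress tumours 1 and 5 together, with log2 fold changes of 1.19 with stress (0.66 in all tumours) and 1.43 after post-stress (0.89). DESeq2 also called G0S2 after post-stress. G0S2 stood at 2.79 to 8.22, 5.93 to 9.88 and 7.34 to 14.2 CPM in the 3 groups.

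Of 9 triglyceride synthesis genes 1 fell: GPAT3, an acyltransferase of the first step, from 7.66 to 15.2 CPM down to 5.99 to 7.95 CPM (0.598-fold, adjusted p = 0.0125), and it was called in all 15 fits that left out 1 tumour. DGAT1, which makes triglyceride in most cells, is listed at 0 in all 15 libraries. Whether a 0 in this table means absence of the RNA was not tested. Among 9 genes of lipoprotein lipolysis and uptake 1 rose and 1 fell. CAV1, the coat protein of caveolae, was 1.37-fold higher (adjusted p = 0.0397), and SLC27A4, a fatty acid transport protein, was 0.838-fold (adjusted p = 0.0402), from 49.8 to 55.0 CPM down to 41.2 to 45.4 CPM. CAV1 was called in 8 of 15 such fits and lost without no-stress tumour 1, 3 or 5 or stress tumour 1, 2, 3 or 5 (adjusted p up to 0.0964). SLC27A4 was called in 5 of 15, those without stress tumour 4 or post-stress tumour 1, 2, 3 or 5 (adjusted p up to 0.108). LPL, the enzyme that ANGPTL4 inhibits, is listed at 0 in all 15 libraries among the human genes. LIPG, an endothelial-type lipase picked out after its values were seen, had a log2 fold change of -2.55 with an adjusted p of 0.189.

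**Figure D4:**
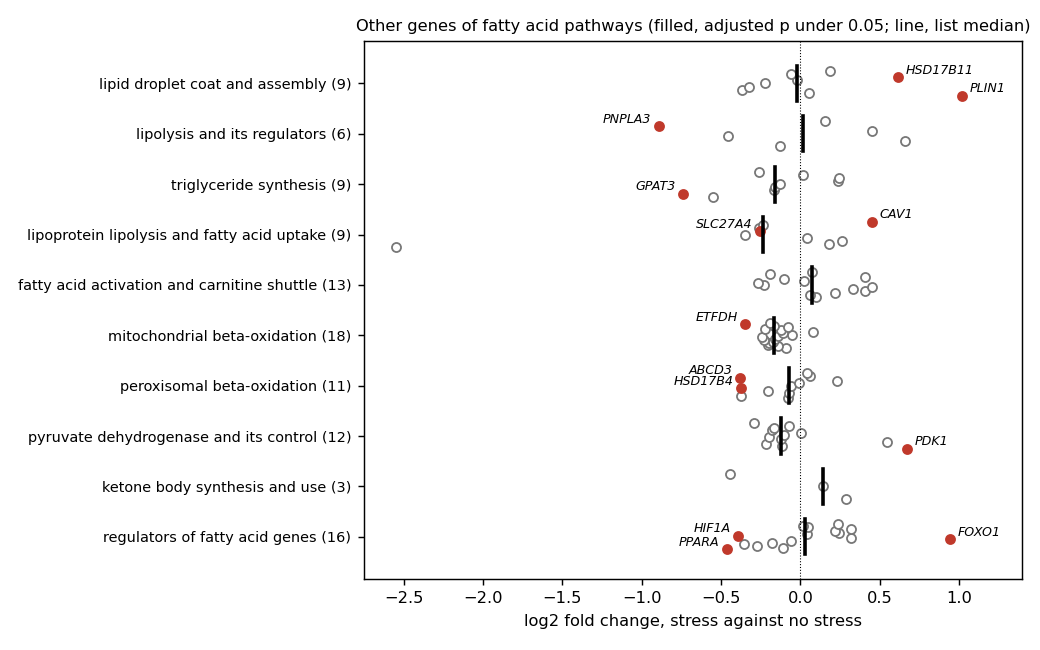
Log2 fold change of the other fatty acid pathway genes in stress against no stress, by list (number tested in parentheses), with filled points for an adjusted p under 0.05 and a vertical line at each list median. Of 106 genes 13 are filled, 5 to the right of 0 and 8 to the left, and 17 of the 18 mitochondrial beta-oxidation genes lie left of 0 with a median of -0.17.

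Mitochondrial beta-oxidation was the most uniform list: 17 of its 18 tested genes had a negative log2 fold change with stress, with a median of -0.17 beside -0.00719 over all genes. A single gene passed the test. ETFDH, which hands electrons from fatty acid oxidation to the respiratory chain, fell from 15.02 to 19.74 CPM down to 12.7 to 14.5 CPM (0.784-fold, adjusted p = 0.0458). ETFDH was called in only 4 of 15 fits that left out 1 tumour, those without no-stress tumour 2, no-stress tumour 5, post-stress tumour 1 or post-stress tumour 5 (adjusted p up to 0.14). After post-stress the list median was -0.04 and 12 of 18 genes were negative. The 13 tested genes of fatty acid activation and the carnitine shuttle had a median of 0.08 with stress, and their lowest adjusted p was 0.107, for CROT.

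Of 11 peroxisomal oxidation genes 2 fell. HSD17B4, a bifunctional enzyme of that pathway, was 0.77-fold (adjusted p = 0.026) and ABCD3, a peroxisomal membrane transporter, 0.769-fold (adjusted p = 0.0273). The HSD17B4 call was lost without no-stress tumour 1, 3 or 4 or stress tumour 1, 3 or 5 (adjusted p up to 0.0768), and the ABCD3 call without no-stress tumour 1 or 3 or stress tumour 1 or 5 (adjusted p up to 0.1).

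Of 12 genes of pyruvate dehydrogenase and its control 1 rose. PDK1, a kinase of the same family as PDK4, stood at 23.2, 36.8, 34.6, 39.5 and 36.9 CPM without stress and at 57.1, 47.3, 58.3, 57.7 and 52.7 CPM with stress (1.6-fold, adjusted p = 0.0446). Its groups did not overlap there, as for 8.79% of all genes, while those of PDK4 did. Post-stress tumours held 67.0, 70.3, 49.2, 31.2 and 37.3 CPM, with tumours 4 and 5 again lowest (1.49-fold, adjusted p = 0.189). The PDK1 call with stress held in 4 of 15 fits that left out 1 tumour, those without post-stress tumour 1, 2, 4 or 5 (adjusted p up to 0.105). Of the 3 tested genes of ketone bodies OXCT1 came closest, with a log2 fold change of -0.44 and an adjusted p of 0.0681.

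Of 16 tested regulators of fatty acid genes 1 rose and 2 fell with stress. FOXO1, a transcription factor active when insulin signalling is low, rose from 7.66 to 10.2 CPM to 10.2 to 23.1 CPM (1.93-fold, adjusted p = 0.00391). PPARA, the main PPAR of fatty acid oxidation in liver, fell from 59.5, 51.2, 59.0, 52.2 and 44.5 CPM to 33.0, 37.9, 42.7, 46.8 and 32.6 CPM (0.724-fold, adjusted p = 0.0125). HIF1A, the oxygen-regulated subunit of HIF-1, which is controlled mainly as a protein, fell from 557 to 722 CPM to 432 to 506 CPM (0.761-fold, adjusted p = 0.0101). These 3 were called in all 15 fits that left out 1 tumour, and HIF1A was lost without no-stress tumours 1 and 5 together.

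After post-stress these 3 regulators did not pass the edgeR test, while the DESeq2 Wald test called all 3, and edgeR without the filter on low counts called PPARA and FOXO1. PPARA was at 36.0 to 43.5 CPM, all below the no-stress group (0.749-fold, adjusted p = 0.0696), and FOXO1 at 11.6 to 16.0 CPM, all above it (1.5-fold, adjusted p = 0.112). Such a lack of overlap was seen for 3.47% of all genes there. PPARA was called without no-stress tumour 5 (adjusted p = 0.0458) and FOXO1 without stress tumour 4 (adjusted p = 0.0462). PPARD was 0.926-fold with stress (adjusted p = 0.604) and PPARG 0.83-fold (adjusted p = 0.199). PPARGC1A, a coactivator of PPARs, had 0 to 16 raw counts per library and did not pass the filter.

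Divided by summed exon length, the members could be ranked by level in no-stress tumours, in CPM per kilobase (mean ± SD, n = 5). ACADVL (65.9 ± 3.57) and HADHA (58.6 ± 5.17) were highest and their mean ± SD ranges overlapped. PLIN2 (24.5 ± 4.89), CPT1A (17.9 ± 1.87), ANGPTL4 (14.7 ± 4.16), PNPLA2 (12.9 ± 2.17) and HILPDA (8.45 ± 2.91) followed, and the mean ± SD range of each overlapped that of the next. LPIN1 (3.39 ± 0.549) and PDK4 (2.38 ± 1.17) also overlapped, and CD36 (0.0869 ± 0.0484) was lowest. In stress tumours ANGPTL4 was first, at 80.1 ± 19.2 CPM per kilobase, ahead of PLIN2 at 60.9 ± 12.6 and ACADVL at 58.7 ± 6.52, whose ranges overlapped with it. HILPDA reached 28.9 ± 5.14 and CPT1A 15.3 ± 2.22 there. The order depends on the length used: by the longest transcript PLIN2 led the stress group at 157 ± 32.4, with ANGPTL4 the third at 106 ± 25.4.

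Across the 15 tumours and 10846 genes with a mean of at least 5 CPM, the genes whose log2 CPM followed ANGPTL4 most closely were MXI1 (Pearson r = 0.961), NDRG1 (0.96), ERRFI1 (0.955), DUSP1 (0.953), SHB (0.95) and PFKFB4 (0.944). Each r is a description over tumours of 3 groups that differ in mean, and has no test. PLIN2 was the eleventh of these genes (r = 0.935) and HILPDA the twelfth (r = 0.934). The other members stood far down, with PNPLA2 at 0.572, PDK4 at 0.344, ACADVL at -0.18, HADHA at -0.31, LPIN1 at -0.481 and CPT1A at -0.504. Post-stress values of NDRG1 were 1368, 947, 741, 663 and 485 CPM and those of MXI1 123, 107, 75.3, 66.2 and 61.0 CPM, in the same order of tumours as ANGPTL4.

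Some members share exon bases with other annotated genes, and whether the counting used strand is not given in the sources used here. PNPLA2 shares 10.4% of its exon bases with the antisense gene AP006621.1. HILPDA shares 8.99% with AC010655.2 and 8.45% with AC010655.4 on its own strand. For ACADVL, LPIN1 and ANGPTL4 the shared part was 1.75%, 0.97% and 0.0403%, and PNPLA2 and HILPDA levels carry that uncertainty most.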

How the data were processed

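RNA of 15 tumours was analysed, 5 per group, with groups and tumour numbers taken from the sample titles. The deposited table holds raw counts per gene, 60649 human and 56941 mouse, and every row named a gene. Per the submitters' processing notes, the authors trimmed reads with Trimmomatic (0.39), aligned them with HISAT2 (2.2.1) to hg38 and mm10 and counted them with featureCounts (2.0.6). DESeq2 and edgeR also stand in those notes. How reads fitting both species were treated, the strandedness and the annotation release are not stated there or in the labels, so reads of a conserved mouse gene can have been counted on its human counterpart.

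The 10 members, the pathway lists and the marker lists were chosen with earlier results of these data known. Human counts were scaled with TMM, filtered with filterByExpr (15435 genes, 99.8% of human counts) and fitted with all 15 libraries by the robust quasi-likelihood test of edgeR 4.0.16 (limma 3.58.1, R 4.3.3). A gene was called when its p, adjusted by Benjamini-Hochberg over all human genes of a comparison, was under 0.05. CPM are counts per 1000000 TMM-scaled human counts. SEs were obtained by dividing a log2 fold change by the square root of its F, and the 95% interval uses the degrees of freedom of the fit. The script was tested on simulated data. No 2 libraries agreed within sampling noise (lowest chi-square per degree of freedom 11.7). Gene symbols came from the reference table of names (60463 of 60649 identifiers), gene and exon coordinates from GENCODE 29 on hg38, and promoters from RefSeq. Mouse counterparts of the members were not analysed here.

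Named genes are the 10 members, 8 fixed genes (ABHD5, G0S2, LPL, PDK1, PPARA, PPARD, PPARG, PPARGC1A), up to 2 called genes with the smallest p per list and comparison, and the 6 genes most correlated with ANGPTL4 (Pearson r of log2 CPM, mean of at least 5 CPM). CROT, OXCT1, LIPG, DGAT1, ALDH3A1, EPCAM, CDH1, CIDEC, COL1A1, DCN, LUM, PDGFRB, PECAM1 and MYH4 were named after their values were seen. Alternatives were DESeq2 (1.42.0) size factors and Wald test, no TMM scaling, limma-voom, no filter, a filter of 1 CPM in 5 libraries, only the groups compared, the mouse share as a covariate, a replicate block, and leaving out each tumour, or no-stress tumours 1 and 5 together.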

Additional observations from a re-analysis of the deposited data

Results flagged for a closer look

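Among 102 groups of 5 tumours (the named genes other than LPL, which is at 0, in the 3 groups), 3 held a tumour far from the other 4, where chance gives about 5%, or 1 group in 20. LPIN1 in post-stress tumour 1 stood at 30.81 CPM, the lowest of its group, with a gap to the next tumour of 0.718 of the group's range. PLIN1 in stress tumour 2 stood at 2.161 CPM, the lowest of its group (0.828 of the range). CAV1 in post-stress tumour 5 stood at 1126 CPM, the highest of its group (0.8 of the range).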

How the results depend on the processing

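For the named genes no direction reversed on a called value. In stress against no stress 1613 human genes were called, 661 to 1834 when 1 tumour was left out, 990 with a replicate block and 546 without no-stress tumours 1 and 5. Called members numbered 3, and 3 to 5 when 1 tumour was left out (PNPLA2 was added without no-stress tumour 2, and CPT1A and PNPLA2 without stress tumour 4). In post-stress against no stress 130 genes were called, 37 to 144 when 1 tumour was left out, 49 with only the groups compared, 57 with the block, 38 with the mouse share as a covariate, 504 by the DESeq2 Wald test and 32 without no-stress tumours 1 and 5. Called members there numbered 3, and 0 to 3 when 1 tumour was left out, 1 without TMM scaling, 1 without the filter, and 0 with only the groups compared, with the block, with the covariate or without no-stress tumours 1 and 5. In stress against post-stress 6 genes were called, 0 to 189 when 1 tumour was left out (189 without stress tumour 4), 36 without the filter, 1 with only the groups compared, 0 with the block, 0 with the covariate and 203 by DESeq2. The cause of these differences was not tested. For single genes, 736 values under the alternatives kept their side of the threshold with stress, 84 lost the call and 5 gained it, and after post-stress these numbers were 728, 78 and 19. Without no-stress tumours 1 and 5 the stress calls of PLIN2, PDK1, HSD17B11, PLIN1, PNPLA3, CAV1, SLC27A4, ETFDH, HSD17B4, ABCD3, HIF1A and PFKFB4 were lost, and ANGPTL4, HILPDA, GPAT3, FOXO1 and PPARA were still called. Because the members were picked with the stress comparison known, nothing is read from whether their calls held. With the replicate block PDK1, CAV1, SLC27A4, ETFDH and ABCD3 lost their stress calls. The mouse share as a covariate removed those of PNPLA3 and SLC27A4 and added G0S2. ETFDH was also lost with limma-voom and with only the groups compared. Without the filter PDK1, SLC27A4 and ETFDH were lost, and without TMM scaling CAV1.

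Replicate numbers shared between groups do not pair the tumours by any label. Same-numbered tumours of different groups had correlations of their deviations from group means between -0.191 and 0.124 (15 pairs, median -0.0478), beside -0.219 to 0.204 for 60 pairs with other numbers. With the replicate block the log2 fold change with stress was 2.46 for ANGPTL4, 1.29 for PLIN2 and 1.78 for HILPDA. Counts of 5 to 22 limit CD36.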
